A study of Xiphophorus multilineatus with 4 samples.

Results

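The transcripts of atp1a1a.5, trpc6b and SLC9A3R2 were followed in the brains of adult male Xiphophorus multilineatus, a swordtail fish. They are 3 of the 18872 transcripts in the count table. Their identifiers are ENSXMAT00000013274 for atp1a1a.5, ENSXMAT00000007581 for trpc6b and ENSXMAT00000012823 for SLC9A3R2. The 3 transcripts were chosen by their higher counts in HQJE than in LQJE brains, measured in these same brains, and because their products carry ions or hold ion carriers in place. Their difference between the groups is therefore given as a description, without a test. The 2 HQJE males (fish 15 and 11) were reared in the high quality juvenile environment, kept singly from an early age and fed flake food and brine shrimp without limit. The 2 LQJE males (fish 17 and 18) were reared in the low quality juvenile environment, crowded in group tanks with a single feeding of flakes a day. The sample labels write the groups as HJQE and LJQE. Every male belonged to the Y-II size class and descended from wild-caught females through laboratory breeding. As adults, the males of both groups were housed singly and moved to the high quality adult diet. Their ages are not stated in the labels or the methods. Food and crowding were varied together, so that their parts in any difference cannot be told apart. Each entire brain gave 1 library, and values are averages over all brain regions and cell types.

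Ion transport across the membrane of brain cells works as a chain of pumps, channels and exchangers. The Na+/K+-ATPase spends ATP to move sodium out of and potassium into the cell, and its alpha subunit is the catalytic one. Channels let ions flow back down these gradients, which carries electrical and calcium signals, and exchangers use the gradients to move other ions and acid. Adaptor proteins with PDZ domains tether channels and exchangers to the cytoskeleton under the membrane.

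The counts summed to between 14260762 (LQJE fish 17) and 25531496 (LQJE fish 18) per brain. At least 1 count was recorded for 18474 transcripts, which were tested together with the quasi-likelihood test of edgeR on counts scaled by the TMM method. A transcript was past the threshold when its unadjusted p was at most 0.01 and its log2 fold change (HQJE over LQJE) was 1 or more, or -1 or less. All 3 transcripts were past it on the higher side. Of all tested transcripts 0.0487% were past the threshold on the higher side and 0.189% on either side, and since the 3 were selected on this contrast nothing is read from that difference. With Benjamini-Hochberg adjustment of edgeR's quasi-likelihood p-values, 0 transcripts reached 0.05 and the lowest was 0.576, whereas 1403 reached 0.05 before adjustment. At the same adjusted level the edgeR exact test gave 35 transcripts (28 with dispersions from estimateDisp), the edgeR likelihood ratio test 42 and DESeq2 79. The DESeq2 number rests on fewer transcripts, because DESeq2 gave some of them, these 3 included, no adjusted p. The same held for the 6 other ion transport transcripts described below, even cacna1ab with 487 to 1186 counts per brain. The DESeq2 number can therefore not be set directly beside the others. LQJE fish 17 stood farthest from the other brains (chi-square per degree of freedom of 28.7 to 29.7 in its pairs, against 14.9 to 17.5 in the other pairs), and the fold changes of the ion transport transcripts are also given with single brains left out.

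The atp1a1a.5 transcript encodes an alpha subunit of the Na+/K+-ATPase. Its name follows that of a zebrafish gene in a tandem series, and in zebrafish some copies of that series are expressed in ionocytes of the skin. Whether this swordtail has such copies was not examined. It was read 289 and 215 times in HQJE fish 15 and 11, against 72 and 100 times in LQJE fish 17 and 18. This corresponded to 13.1 and 9.72 CPM (counts divided by the TMM-scaled library size) in the HQJE brains, against 5.22 and 3.98 CPM in the LQJE brains. HQJE fish 15 was the highest and LQJE fish 18 the lowest, and the groups did not overlap. Both HQJE brains were above both LQJE brains in 18.8% of all tested transcripts, and both were below in 21.1%. The mean was 11.4 ± 2.43 CPM in HQJE fish and 4.60 ± 0.873 CPM in LQJE fish (SD, n = 2 each). The log2 fold change was 1.32 with a standard error of 0.253, a 2.5-fold higher level in HQJE fish. The sources used here do not say how reads shared by near-identical copies, if there are any, were treated, and the count is uncertain for that reason.

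The trpc6b transcript encodes a TRPC cation channel. In mammals TRPC6 is a calcium-permeable channel that opens in response to diacylglycerol, a lipid messenger made by phospholipase C. It was read 289 and 248 times in HQJE fish 15 and 11, against 85 and 93 times in LQJE fish 17 and 18. Its level was 13.1 and 11.2 CPM in the HQJE brains, against 6.16 and 3.71 CPM in the LQJE brains. The order of the brains was that of atp1a1a.5, with HQJE fish 15 highest, LQJE fish 18 lowest and no overlap. The mean was 12.2 ± 1.37 CPM in HQJE fish and 4.93 ± 1.74 CPM in LQJE fish (SD, n = 2 each). The log2 fold change was 1.32 with a standard error of 0.285.

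The SLC9A3R2 transcript encodes no carrier itself. In mammals its product, also known as NHERF2, is a PDZ adaptor that links the sodium/hydrogen exchanger NHE3 to the cytoskeleton. It was read 104 and 72 times in HQJE fish 15 and 11, against 12 and 20 times in LQJE fish 17 and 18. Its level was 4.73 and 3.25 CPM in the HQJE brains, against 0.870 and 0.797 CPM in the LQJE brains. Again HQJE fish 15 was highest, and LQJE fish 18 was lowest. The LQJE brains lay so close together, on few counts, that nothing is read from their order. The mean was 3.99 ± 1.04 CPM in HQJE fish and 0.833 ± 0.0516 CPM in LQJE fish (SD, n = 2 each). The log2 fold change was 2.26 with a standard error of 0.369, a 4.78-fold higher level in HQJE fish. The gene name is annotated as 1 of many copies, so that reads may be shared with copies not named here.

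**Figure D1:**
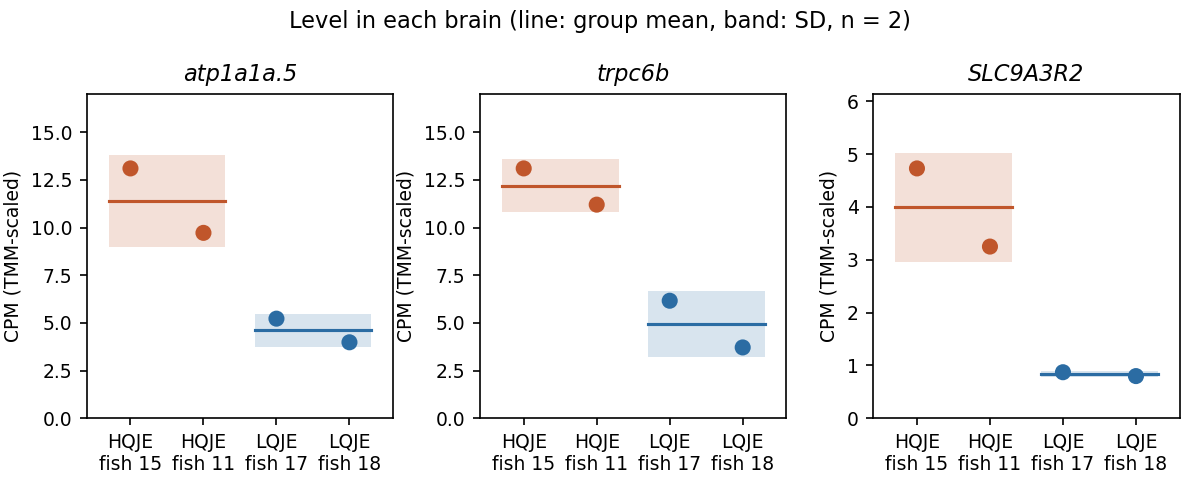
Level of atp1a1a.5, trpc6b and SLC9A3R2 in CPM (vertical axes, starting at 0) in each of the 4 brains. Points are brains, lines are group means and bands are ± SD (n = 2), and in each panel both HQJE points (13.1 and 9.72, 13.1 and 11.2, and 4.73 and 3.25 CPM) lie above both LQJE points (5.22 and 3.98, 6.16 and 3.71, and 0.870 and 0.797 CPM).

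The gap between the groups was largest in SLC9A3R2 among the 3 transcripts. The lower HQJE brain had 1.86 times the level of the higher LQJE brain for atp1a1a.5, 1.82 times for trpc6b and 3.74 times for SLC9A3R2. Among the 15087 transcripts that averaged 1 CPM or more, 16 had a ratio at least as large as that of atp1a1a.5, 19 as large as that of trpc6b and 2 as large as that of SLC9A3R2, each transcript itself included. By log2 fold change toward HQJE fish, SLC9A3R2 ranked 9, trpc6b 37 and atp1a1a.5 38 among the same transcripts. The median log2 fold change was 1.32 over the 3 transcripts and -0.019 over all tested transcripts. Because the 3 were selected on this contrast, their gaps, ranks and median restate that choice, and nothing is read from them.

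The counts pooled over the brains of a group show the precision that this depth gives. The 504 counts of atp1a1a.5 in HQJE brains and 172 in LQJE brains gave a ratio of 2.58 after scaling (exact 95% interval 2.17 to 3.09). For trpc6b the 537 and 178 counts in the HQJE and LQJE brains gave 2.66 (2.24 to 3.17). For SLC9A3R2 the 176 and 32 counts gave 4.85 (3.31 to 7.31), the widest interval of the 3 because of the few counts in LQJE brains. These intervals cover counting error only and not the spread between fish, and they may be too narrow, since reads counted without molecular identifiers may be copies of 1 molecule.

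**Figure D2:**
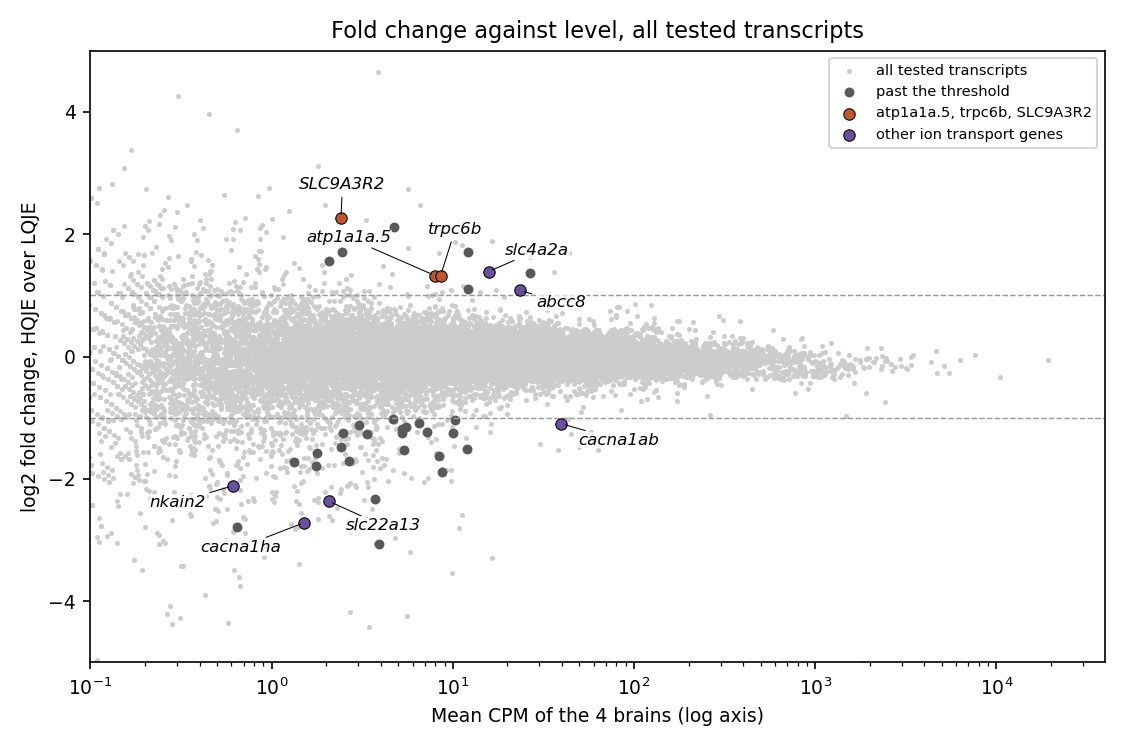
Log2 fold change, HQJE over LQJE (vertical axis), against the mean CPM of the 4 brains (horizontal log axis) for the tested transcripts, of which 854 lie outside the axes and are not drawn. The orange points of atp1a1a.5 and trpc6b coincide almost at a log2 fold change of 1.32 and SLC9A3R2 lies above them at 2.26, and the purple points of the other ion transport genes lie on both sides of 0.

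The transcripts were not chosen by how the brains of the same group differed from each other, although that spread enters the p-value behind the choice. Between the HQJE brains, fish 15 was above fish 11 by 1.35-fold in atp1a1a.5, 1.17-fold in trpc6b and 1.45-fold in SLC9A3R2. Between the LQJE brains, fish 17 was above fish 18 by 1.31-fold in atp1a1a.5, 1.66-fold in trpc6b and 1.09-fold in SLC9A3R2. The ratio of SLC9A3R2 rests on 12 and 20 counts in LQJE fish 17 and 18. The widest of these within-group ratios, that of trpc6b in LQJE fish, was smaller than the 1.82-fold gap of the same transcript between the groups. The transcripts were selected for a difference between the groups, so nothing is read from that comparison. Over the same 15087 transcripts, the median ratio of the higher to the lower brain was 1.12 between the HQJE brains and 1.13 between the LQJE brains. The HQJE brains differed more than in atp1a1a.5 in 17.1% of these transcripts, more than in trpc6b in 37.4% and more than in SLC9A3R2 in 11.7%. The LQJE brains differed more than in atp1a1a.5 in 24.5%, more than in trpc6b in 10.9% and more than in SLC9A3R2 in 62.4%. Level was not matched in these shares, and counting error widens such ratios in transcripts with few counts. The biological coefficient of variation that edgeR estimated was 21.1% for atp1a1a.5, 22.4% for trpc6b and 29.9% for SLC9A3R2, while the common value was 19.9%. Of the tested transcripts, 45.6%, 43.3% and 31.1% had a higher estimate than atp1a1a.5, trpc6b and SLC9A3R2, in that order.

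Ratios of counts within a brain do not depend on the scaling between brains. The ratio of trpc6b to atp1a1a.5 counts was 1 and 1.15 in HQJE fish 15 and 11 and 1.18 and 0.930 in LQJE fish 17 and 18, so the groups overlapped. Its 4 exact 95% intervals, between 0.694 at the lowest and 1.64 at the highest, overlapped with each other as well. The ratio of SLC9A3R2 to atp1a1a.5 counts was 0.360 and 0.335 in the HQJE brains, compared with 0.167 and 0.200 in the LQJE brains. That of SLC9A3R2 to trpc6b counts was 0.360 and 0.290 in the HQJE brains, compared with 0.141 and 0.215 in the LQJE brains. Both ratios with SLC9A3R2 were thus higher in the HQJE brains, but most of their exact 95% intervals overlapped between the groups. Such overlap is not a test of a difference, and the ratios rest on the counts used for the selection. Against atp1a1a.5 the intervals of HQJE fish 15 and 11 (0.285 to 0.452 and 0.253 to 0.439) overlapped with those of LQJE fish 17 and 18 (0.0823 to 0.309 and 0.117 to 0.326). Against trpc6b those of HQJE fish 15 and 11 (0.285 to 0.452 and 0.220 to 0.379) overlapped with those of LQJE fish 17 and 18 (0.0702 to 0.260 and 0.126 to 0.351), except that HQJE fish 15 lay clear of LQJE fish 17. These are ratios of reads and not of transcript numbers, because transcript lengths were not used.

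**Figure D3:**
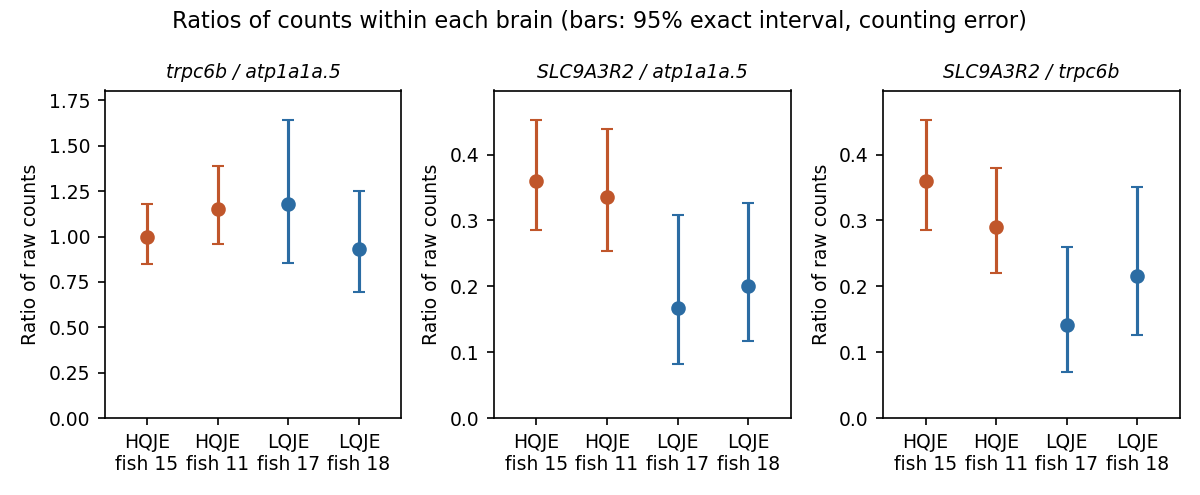
Ratio of raw counts (vertical axes, starting at 0) of trpc6b to atp1a1a.5, SLC9A3R2 to atp1a1a.5 and SLC9A3R2 to trpc6b in each brain, with exact 95% intervals for counting error. The first ratio lies between 0.930 and 1.18 in all 4 brains, and the ratios with SLC9A3R2 are higher in the HQJE brains (0.290 to 0.360) than in the LQJE brains (0.141 to 0.215), with intervals that mostly overlap between the groups.

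Likeness of pattern was measured as the root mean square difference of log2 CPM, centred on each transcript's mean, over the 4 brains. For atp1a1a.5 and trpc6b this difference was 0.141, while SLC9A3R2 differed from them by 0.423 and 0.460. All 3 were selected as higher in HQJE brains. Their likeness to each other and to other such transcripts in part restates that choice, and nothing is read from it. Each was set against the other 79 named transcripts that averaged 1 CPM or more, all of which the study had selected on these same brains. The named transcript most like atp1a1a.5 was abcb11b, which encodes an ATP-driven transporter known in mammals as the bile salt export pump, with a difference of 0.0973. Its level was 44.4 and 32.1 CPM in the HQJE brains, compared with 15.5 and 14.3 CPM in the LQJE brains. Next came trpc6b at 0.141 and xdh, which encodes xanthine dehydrogenase, at 0.286. For trpc6b the order was atp1a1a.5 at 0.141, abcb11b at 0.229 and xdh at 0.416. For SLC9A3R2 it was b3gnt7, a glycosyltransferase gene, at 0.343, abcb11b at 0.389 and atp1a1a.5 at 0.423. The b3gnt7 transcript had 2.5 and 1.17 CPM in the HQJE brains, compared with 0.362 and 0.558 CPM in the LQJE brains. Among all 15087 transcripts of that level, 1 was closer to atp1a1a.5 than abcb11b was, 2 were closer to trpc6b than atp1a1a.5 was, and 1 was closer to SLC9A3R2 than b3gnt7 was. For the last named in each order, the number closer was 25 for atp1a1a.5, 111 for trpc6b and 4 for SLC9A3R2.

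From the study's list of differentially expressed transcripts, which the study chose on these brains, 6 others were taken as ion transport genes by name or description. The transporter gene abcb11b, higher in both HQJE brains, was not among them, and the numbers below depend on this choice. By the quasi-likelihood test 1 of the 6 was past the threshold, on the lower side, and none on the higher side. Their log2 fold changes had a median of -1.61, with 2 above and 4 below 0. With the edgeR exact test on common and tagwise dispersions all 6 were past the threshold, 2 higher and 4 lower. With that test on dispersions from estimateDisp, and likewise with the edgeR likelihood ratio test, 2 were (nkain2 and slc22a13), and with DESeq2 slc22a13 alone was.

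The transcript past the threshold was nkain2, whose product belongs to a family of proteins that, in mouse, bind the beta subunit of the Na+/K+-ATPase. It was read 5 and 5 times in HQJE brains, against 12 and 28 times in LQJE brains, or 0.227 and 0.226 CPM against 0.870 and 1.12 CPM. The log2 fold change was -2.11 (standard error 0.536), opposite in direction to atp1a1a.5, on few counts. It was not past the threshold without TMM scaling or with DESeq2. With single brains left out the log2 fold change lay between -2.27 and -1.88, and it stayed past the threshold only without LQJE fish 17, at -2.27.

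The exchanger slc4a2a and the potassium channel subunit abcc8 had log2 fold changes of 1.39 (standard error 0.532) and 1.08 (standard error 0.495), and neither was past the threshold. The product of slc4a2a exchanges chloride for bicarbonate, and that of abcc8 is a regulatory subunit of ATP-sensitive potassium channels. The level of slc4a2a was 11.4 and 34.3 CPM in HQJE fish 15 and 11, against 6.67 and 10.6 CPM in LQJE fish 17 and 18. That of abcc8 was 15.8 and 47.9 CPM in HQJE fish 15 and 11, against 16.5 and 13.7 CPM in LQJE fish 17 and 18. Both were about 3-fold higher in HQJE fish 11 than in HQJE fish 15 (ratios of 3.02 and 3.03), whereas atp1a1a.5, trpc6b and SLC9A3R2 were highest in fish 15. With HQJE fish 11 left out, slc4a2a was at 0.39 and abcc8 at 0.07 on the log2 scale, and with HQJE fish 15 left out they were 1.98 and 1.67 and both past the threshold.

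The calcium channel genes cacna1ab and cacna1ha, which encode pore-forming subunits of P/Q-type and T-type channels, were high in a single brain. The cacna1ab transcript was read 619 and 487 times in HQJE fish 15 and 11, against 1186 and 566 times in LQJE fish 17 and 18, the first of which was 3.81-fold above the other in CPM. That of cacna1ha was 0.409 and 0.361 CPM in HQJE fish 15 and 11, against 4.93 and 0.359 CPM in LQJE fish 17 and 18. Their log2 fold changes of -1.10 (standard error 0.582) and -2.71 (standard error 1.18) were not past the threshold. They were 0.15 and 0.10 without LQJE fish 17, and -1.75 and -3.63 and past the threshold without LQJE fish 18. For slc22a13, an organic anion transporter gene annotated as 1 of many copies, the level was 0.546 and 0.813 CPM in the HQJE brains, against 1.38 and 5.54 CPM in LQJE fish 17 and 18. Its log2 fold change was -2.36 (standard error 0.715), -0.98 without LQJE fish 18, and -3.02 and past the threshold without LQJE fish 17.

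**Figure D4:**
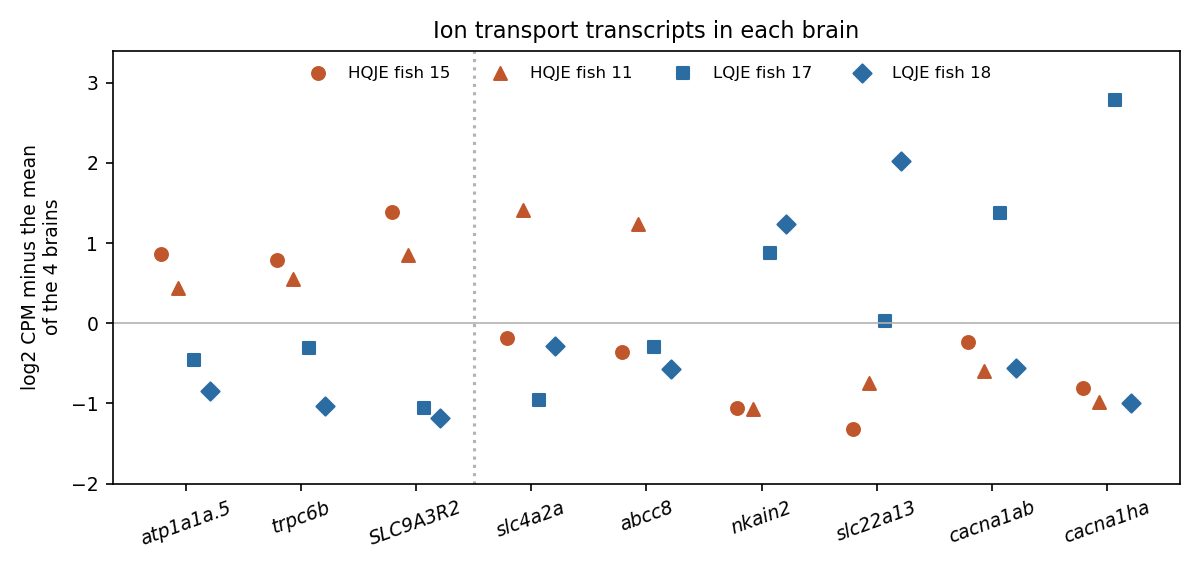
Log2 CPM minus the mean of the 4 brains (vertical axis) for atp1a1a.5, trpc6b and SLC9A3R2 (left of the dotted line) and 6 other ion transport transcripts, with 1 symbol for each brain. On the left both HQJE brains lie above 0 and both LQJE brains below, whereas slc4a2a and abcc8 are high in HQJE fish 11 and cacna1ab and cacna1ha are high in LQJE fish 17.

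The 3 transcripts kept their direction when single brains were left out, but not their place past the threshold. The kept direction was fixed by both HQJE brains lying above both LQJE brains, and nothing is read from it. Without HQJE fish 15 the log2 fold change was 1.08 for atp1a1a.5, 1.2 for trpc6b and 1.96 for SLC9A3R2, and by quasi-likelihood 0 of the 3 were past the threshold. Without LQJE fish 18 the values were 1.16, 1.01 and 2.22 in the same order, and again 0 were past it. Without HQJE fish 11 they were 1.52, 1.43 and 2.5, and without LQJE fish 17 they were 1.52, 1.71 and 2.31, with all 3 past it both times. In each of these fits 1 group had a lone brain, which was assumed to vary like the others.

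**Figure D5:**
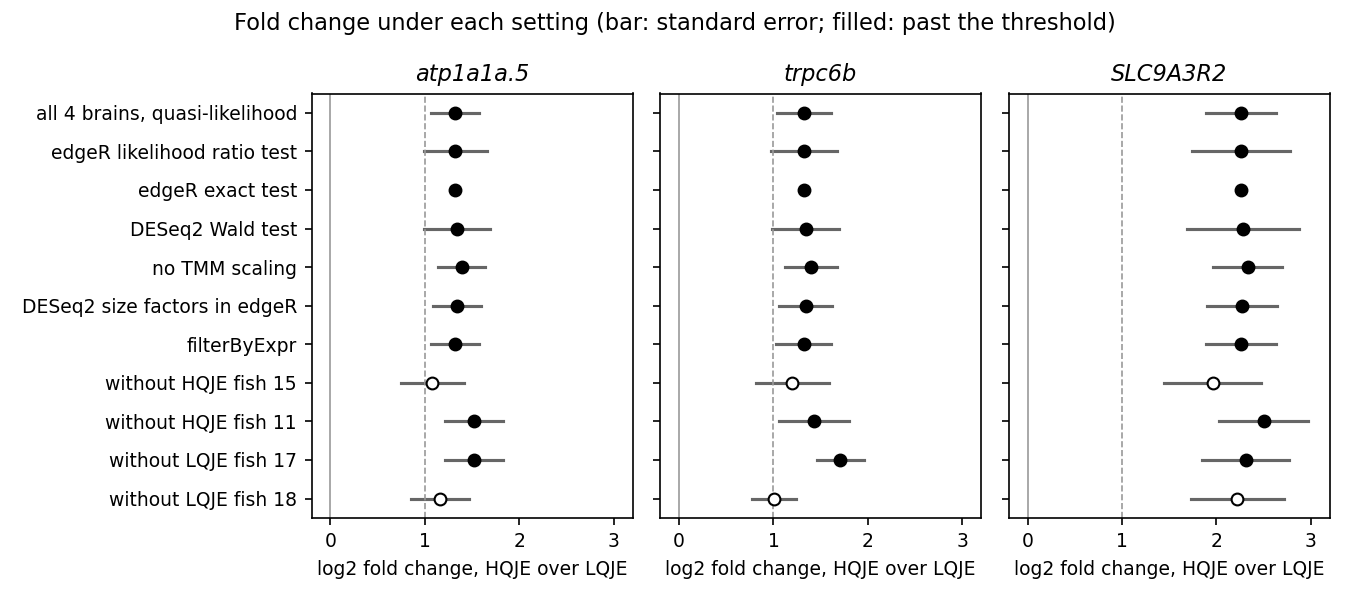
Log2 fold change, HQJE over LQJE (horizontal axes), of atp1a1a.5, trpc6b and SLC9A3R2 under the main test, 6 other settings and with each brain left out. The quasi-likelihood test, the likelihood ratio test and DESeq2 compute standard errors in different ways. Bars are standard errors, which the edgeR exact test does not give, and open circles mark fits in which the transcript was not past the threshold, which are those without HQJE fish 15 and without LQJE fish 18 in each panel.

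In a whole brain, fewer cells of a type and less RNA per cell cannot be told apart. Of 45 marker genes set out for neurons, glia, choroid plexus, blood, pituitary, muscle, leukocytes and ionocytes, 5 could be paired with a transcript, so that the brain label and most other cell types were not checked. Names came from the study's list of transcripts that it called as different between these same brains, so a marker could be paired only if it was on that list, and the counts below restate that selection and are no check of cell types. The 4 skeletal muscle markers that could be paired, of 5 set out, were lower in both HQJE brains than in both LQJE brains, as were 21.1% of all tested transcripts. Summed, they stood at 5.82 and 5.24 CPM in HQJE brains and 15.0 and 17.7 CPM in LQJE brains, opposite to the 3 ion transport transcripts, and mylpfa, a fast muscle myosin light chain gene, was at 0 counts in both HQJE brains. The only leukocyte marker paired, of 4 set out, was mpx, a myeloperoxidase gene annotated as 1 of many copies, at 8.32 and 17.3 CPM in HQJE fish 15 and 11 and 5.29 and 2.79 CPM in LQJE fish 17 and 18. It was higher in both HQJE brains, as were 18.8% of all tested transcripts. Within HQJE it was highest in fish 11, unlike atp1a1a.5, trpc6b and SLC9A3R2 but like slc4a2a, abcc8 and slc22a13. The part of other cell types in the levels of atp1a1a.5, trpc6b and SLC9A3R2 was not tested.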

How the data were processed

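RNA of 4 whole brains, 2 HQJE and 2 LQJE, was measured by sequencing. After quality trimming the authors aligned reads to their X. multilineatus transcripts by Bowtie2, and deposited raw counts per transcript. The treatment of pairs, strands and multiply matching reads was not given in the sources used here. Of 18872 transcripts, 398 without a count were left out. All 3 ion transport transcripts passed this filter and filterByExpr. Total counts were 14260762 to 25531496 per brain, and a count of 0 allows up to 3 counts.

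Counts were scaled by TMM (factors 0.967 to 1.04) and tested by quasi-likelihood in edgeR 4.0.16 (R 4.3.3, limma 3.58.1). Standard errors of the quasi-likelihood fits were the absolute log2 fold change over the square root of F. For the likelihood ratio test the square root of its own statistic was used, and DESeq2 reported its own standard errors. Alternatives were the exact and likelihood ratio tests of edgeR, DESeq2 1.42.0, other scalings, filterByExpr, and each brain left out. The edgeR exact test used common and tagwise dispersions, a choice made after its counts were seen. That test with estimateDisp was added, also after the data were seen. Counts were simulated for the 18474 transcripts, with changes placed only in transcripts averaging 1 CPM or more. They were drawn independently with the dispersions that edgeR estimated from these brains, and no brain was set apart from the others. The quasi-likelihood test called 78 of 100 changed 2.5-fold, 97 of 100 changed 4-fold and 47 of 18274 left unchanged. In the real counts it called 35. Of the unchanged transcripts the exact test called 88, the likelihood ratio test 127 and DESeq2 47. Log2 CPM used a prior count of 2 for the likeness of pattern and none for the figure of ion transport transcripts by brain.

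The genes named are the 3 transcripts, 6 others taken from the study's list as ion transport genes, and the 3 named transcripts (mean of 1 CPM or more) nearest to each in pattern. The members and lists were chosen with earlier results of these data known. Names came from the study's list (97 of its 131 transcripts have one), so other subunits and family members were not analysed here. The fold changes and p-values that the same list holds were not used. Each brain is a separate fish by its label.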

Additional observations from a re-analysis of the deposited data

How the results depend on the processing

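For atp1a1a.5, trpc6b and SLC9A3R2, which were selected as higher in HQJE brains, both HQJE brains were above both LQJE brains. A turn of their direction was therefore hardly possible. Their log2 fold changes stayed positive under every alternative run, and the 3 stayed past the threshold under the 8 alternatives that kept all brains. The study had already called these 3 at the same threshold on these same brains, so nothing is read from their staying past it. With each brain left out in turn they ranged from 1.08 to 1.52, from 1.01 to 1.71 and from 1.96 to 2.5, in that order, and between 0 and 3 of them were past the threshold (0 without HQJE fish 15 and without LQJE fish 18). The number of all transcripts past the threshold was 35 with all brains, 133 with the edgeR exact test on common and tagwise dispersions, 75 and 80 with that test on dispersions from estimateDisp without and with the design (added after seeing the data), 121 with the likelihood ratio test, 53 with DESeq2 and between 56 and 348 with a brain left out. The split was 9 higher and 26 lower with TMM scaling, and 19 higher and 21 lower without it. Leaving out HQJE fish 15 turned the balance to 40 higher and 16 lower. It was 31 higher and 35 lower with HQJE fish 11 left out, 28 higher and 47 lower with LQJE fish 17 left out, and 34 higher and 314 lower with LQJE fish 18 left out. Of the 6 other ion transport transcripts 1 was past the threshold, against 6 with the edgeR exact test, 2 with that test on either estimateDisp dispersion, 2 with the likelihood ratio test, 0 without TMM scaling and between 0 and 2 with a brain left out. With each brain left out, cacna1ab ranged from -1.75 to 0.15 and cacna1ha from -3.63 to 0.10, and the direction of both turned only without LQJE fish 17. Both transcripts were highest in that brain, and the reason for it was not tested. The filterByExpr filter left cacna1ha out of the test. No paired analysis was run, because the labels link no HQJE fish to an LQJE fish. Whether any of the fish shared a brood or a tank is not stated in the labels or the methods. With 2 brains in each group, an exact permutation of the groups cannot reach a small p.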
